A study of Mus musculus with 16 samples.

Results

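Open chromatin around Myb and Gfi1 was described from ATAC-seq peaks of mouse thymocytes at 4 stages. These were the double negative stage (DN), the double positive stage (DP) and the mature single positive stages that carry CD4 (SP4) or CD8 (SP8). ATAC-seq cuts accessible DNA with the Tn5 transposase, so that a peak marks a stretch where chromatin was open to the enzyme. A peak was taken where it lay whole within the GENCODE M21 gene body of Myb or Gfi1 or within 100 kb on either side in mm10. This rule gave 398 of the 476734 peaks in the 4 lists, 242 of them at Myb and 156 at Gfi1. Joining the peaks of the 4 lists wherever they shared at least 1 bp gave 85 regions at Myb and 59 at Gfi1, out of 185978 regions in all.

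The cells came from thymi of 4 wild-type C57BL/6J mice 9 weeks of age, with 1 library per mouse and stage, 16 samples in all. All sorted cells lacked the lineage markers of an antibody cocktail, among them TER119, B220, Mac1, Gr1, CD11c, NK1.1 and gdTCR. DN cells were CD4-CD8-CD3-, DP cells CD4+CD8+, SP4 cells CD4+CD8-CD3+ and SP8 cells CD4-CD8+CD3+. The authors pooled the reads of the 4 mice before calling peaks, so each stage is 1 list, no spread between mice can be computed and no test of a difference between stages is given. The 95% Wilson intervals printed below cover counting error only. Per the study's methods, reads were thinned to the median library depth before pooling, and the pooled depth is given as a range over the stages. The files carry no read counts, so that the reads behind a single peak are unknown.

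MYB is a DNA-binding transcription factor of blood progenitors and immature thymocytes, where it is needed for the passage from DN to DP and for the survival of DP cells. Its transcription is known to be regulated in part by the release of paused polymerase within the first intron, and distal elements upstream of the gene are known to act on it in blood cells. GFI1 is a zinc-finger repressor that silences its targets with LSD1 (encoded by Kdm1a), CoREST and histone deacetylases, and it is known to repress its own gene.

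Myb (ENSMUSG00000019982.15) covers chr10:21124935-21160984 on the minus strand, and its window was chr10:21024935-21260984. The 3′ flank of this window runs into Ahi1, and the 5′ flank holds the noncoding genes Gm40608, Gm33619 and Gm33728. Gfi1 (ENSMUSG00000029275.18) covers chr5:107716657-107726036 on the minus strand, with the window chr5:107616657-107826036. Rpap2 lies in its 3′ flank and Evi5 in its 5′ flank. Regions are named by the distance of their highest summit from the 5′ end of the gene, so that downstream distances of up to 36.0 kb at Myb and 9.38 kb at Gfi1 are within the gene. Height is given as the fold enrichment of the peak over its local background and as its percentile, the percentage of peaks of the same list with a lower fold enrichment.

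The sequences below are those of the regions on which the comparisons turn, 200 bases of mm10 (plus strand) centred on the highest summit. None overlaps an annotated exon. Capitals mark letters that matched a motif on either strand. The letters searched for MYB were CAACNG, and TAACNG was accepted in their place. GFI1 was searched by the letters AATCAC. RUNX factors were searched by TGTGGT. The letters for the GATA family were AGATAA. E-boxes, which TCF12 and related factors bind, were searched by CAGNTG. TCF7 and LEF1 were searched by CTTTGA. ETS factors were searched by AGGAAG. A core of the CTCF motif was searched by AGGGGGC. The letters CAACTG answer to both the MYB and the E-box motif, and a MYB match can also overlap an E-box by a few bases. At Myb, the first sequence is the highest non-exonic region that was called at all 4 stages (chr10:21235292-21235491, in an intron of Gm33728). The next 3 were called at DN and DP and lacked a peak in SP4 and SP8 (chr10:21118518-21118717 between genes, chr10:21036296-21036495 in an intron of Ahi1 and Gm20149, and chr10:21027963-21028162 in an intron of Ahi1). The last differed most in height among the regions called at all 4 stages (chr10:21067903-21068102, in an intron of Ahi1).
74.4 kb upstream: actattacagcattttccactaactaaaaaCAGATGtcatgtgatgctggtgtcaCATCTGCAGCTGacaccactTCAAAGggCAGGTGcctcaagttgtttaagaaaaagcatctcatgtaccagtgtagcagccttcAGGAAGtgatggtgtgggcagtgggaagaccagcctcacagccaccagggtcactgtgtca
42.4 kb downstream: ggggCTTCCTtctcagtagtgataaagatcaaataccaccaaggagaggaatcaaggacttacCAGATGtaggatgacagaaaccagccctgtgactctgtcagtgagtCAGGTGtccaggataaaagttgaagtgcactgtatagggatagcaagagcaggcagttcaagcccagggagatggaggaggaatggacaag
124.6 kb downstream: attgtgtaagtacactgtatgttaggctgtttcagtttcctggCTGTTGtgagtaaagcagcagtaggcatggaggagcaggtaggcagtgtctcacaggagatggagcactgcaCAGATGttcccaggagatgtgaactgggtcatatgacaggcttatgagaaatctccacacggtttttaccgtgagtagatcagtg
132.9 kb downstream: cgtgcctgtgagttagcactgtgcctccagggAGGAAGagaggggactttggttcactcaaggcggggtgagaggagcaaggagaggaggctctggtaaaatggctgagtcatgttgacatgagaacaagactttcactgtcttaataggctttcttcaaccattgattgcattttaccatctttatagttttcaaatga
93.0 kb downstream: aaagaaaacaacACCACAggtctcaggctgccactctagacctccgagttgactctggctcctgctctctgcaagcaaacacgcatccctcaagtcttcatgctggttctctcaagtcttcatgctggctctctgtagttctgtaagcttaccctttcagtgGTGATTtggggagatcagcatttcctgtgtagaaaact

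At Gfi1, the first sequence is again the highest region called at all 4 stages (chr5:107739146-107739345, between genes). The next 3 lacked a peak in at least 1 stage, DP for the first (chr5:107776882-107777081, in an intron of Evi5), SP4 and SP8 for the second (chr5:107709085-107709284, between genes) and SP4 for the last of them (chr5:107759258-107759457, in an intron of Evi5). The fifth differed most in height among the regions called at all 4 stages (chr5:107700939-107701138, in an intron of 4930428O21Rik).
13.2 kb upstream: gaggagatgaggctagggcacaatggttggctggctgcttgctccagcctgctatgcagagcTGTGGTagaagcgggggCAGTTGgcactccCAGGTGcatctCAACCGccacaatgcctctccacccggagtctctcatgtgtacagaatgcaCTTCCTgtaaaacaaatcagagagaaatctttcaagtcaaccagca
50.9 kb upstream: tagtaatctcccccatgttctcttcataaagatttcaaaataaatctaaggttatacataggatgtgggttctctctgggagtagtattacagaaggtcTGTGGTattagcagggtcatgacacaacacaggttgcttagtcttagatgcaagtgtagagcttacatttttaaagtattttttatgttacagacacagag
16.9 kb downstream: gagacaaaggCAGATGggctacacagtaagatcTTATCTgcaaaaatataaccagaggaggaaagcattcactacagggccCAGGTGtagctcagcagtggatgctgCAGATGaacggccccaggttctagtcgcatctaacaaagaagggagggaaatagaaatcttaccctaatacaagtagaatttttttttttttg
33.3 kb upstream: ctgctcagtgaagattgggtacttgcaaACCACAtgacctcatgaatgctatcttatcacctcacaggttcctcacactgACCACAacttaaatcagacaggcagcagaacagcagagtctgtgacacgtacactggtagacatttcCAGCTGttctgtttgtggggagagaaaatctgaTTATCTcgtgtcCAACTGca
25.0 kb downstream: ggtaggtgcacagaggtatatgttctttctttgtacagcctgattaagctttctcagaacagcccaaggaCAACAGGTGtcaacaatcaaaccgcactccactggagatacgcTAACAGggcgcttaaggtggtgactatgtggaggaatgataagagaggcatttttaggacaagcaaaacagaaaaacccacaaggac

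The Myb window was among the most densely open gene windows of the genome in these thymocytes. It held 103 peaks per 100 kb over the 4 lists, more than 99.3% of the 20807 gene windows made by the same rule, whose median was 36.2. The Gfi1 window held 74.5 peaks per 100 kb, more than 90.4% of those windows. Myb had 71 peaks in DN, 64 in DP, 55 in SP4 and 52 in SP8, and Gfi1 had 40, 38, 38 and 40. The numbers at Myb have to be read against the lists themselves, which held 150139 peaks for DN, 107110 for DP, 115074 for SP4 and 104411 for SP8. Per 10000 peaks of its list, Myb took 4.73 in DN, 5.98 in DP, 4.78 in SP4 and 4.98 in SP8, and Gfi1 took 2.66, 3.55, 3.30 and 3.83. On this scale DP was the highest stage at Myb and SP8 at Gfi1. DN was the lowest at Gfi1, and at Myb it stood level with SP4 (4.73 against 4.78). No interval was computed for these rates. With the lists cut to equal length by q-value, Myb had 46 peaks in DN, 64 in DP, 54 in SP4 and 52 in SP8. Gfi1 then had 27, 37, 32 and 40, so that its near-even counts became lowest in DN and highest in SP8.

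**Figure D1:**
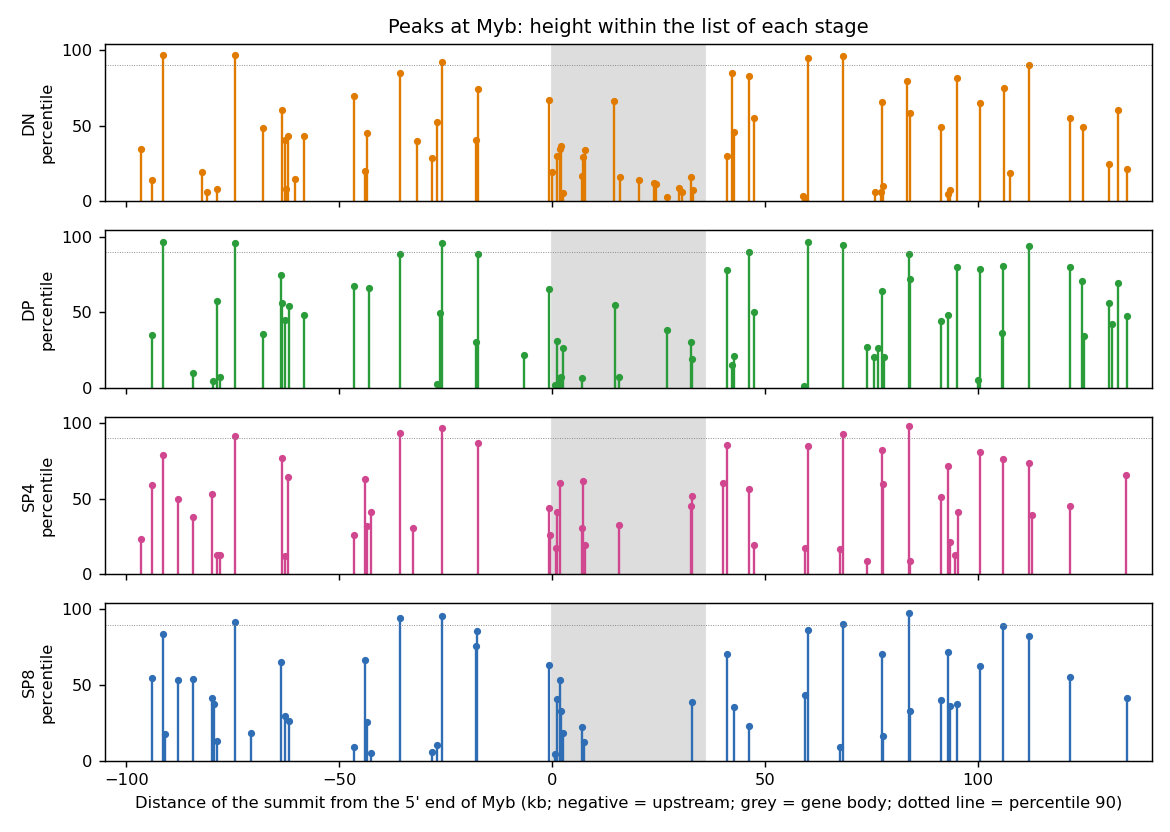
Peaks in the Myb window at the 4 stages, 1 panel per stage. The horizontal axis is the distance of the summit from the 5′ end of Myb in kb and the vertical axis the percentile of the peak within its list. Each line with a dot is a peak, the grey band is the gene body and the dotted line is percentile 90. The tall peaks lie in both flanks, while no peak in the gene body passes percentile 66.4.

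The highest peaks at Myb lay in the flanks and not inside the gene. The highest peak of the gene body, leaving aside the region over the start site, reached percentile 66.4 in DN and 61.8 in SP4, whereas the upstream flank reached percentile 96.9 in DN and the downstream flank 98.1 in SP4. Upstream of the gene 33 regions were found, 17 lay in the gene body and 35 downstream of it. Peaks at or above percentile 90 numbered 5 in DN, 6 in DP, 5 in SP4 and 5 in SP8. At Gfi1 they numbered 4, 3, 3 and 4, and there the upstream flank held 27 regions, the gene body 4 and the downstream flank 28.

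**Figure D2:**
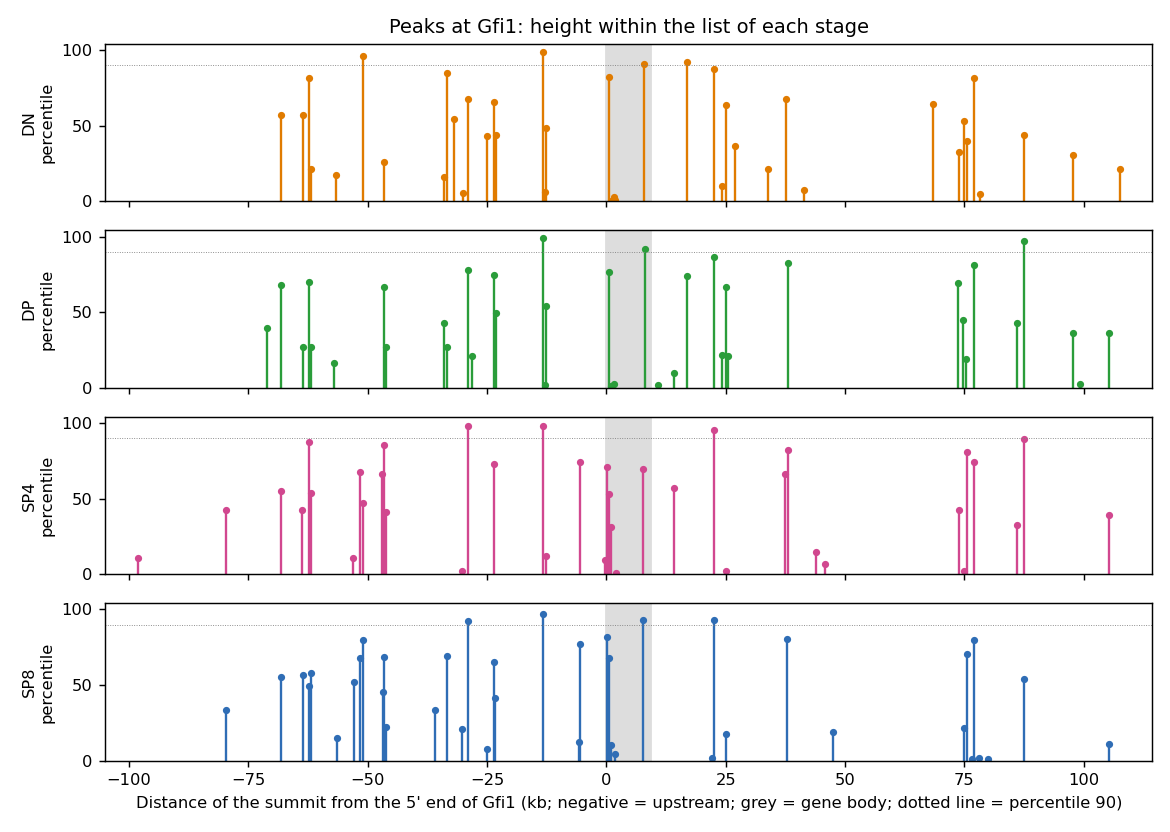
Peaks in the Gfi1 window at the 4 stages, 1 panel per stage. The horizontal axis is the distance of the summit from the 5′ end of Gfi1 in kb and the vertical axis the percentile of the peak within its list. Lines with dots are peaks, the grey band is the gene body and the dotted line is percentile 90. The peak 13.2 kb upstream lies above the dotted line in every panel.

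The start site of each gene was open at every stage. The region over the 5′ end of Myb (chr10:21160663-21161786, exon 1 and the sequence before it) stood at percentile 66.7 in DN, 65.2 in DP, 43.9 in SP4 and 63.5 in SP8, with fold enrichments of 7.95, 7.63, 5.27 and 8.46. By the highest peak of each list in this region, SP4 was the lowest stage and the other stages lay close together. Over equal lists DN stood at 52.1, below DP (64.3) and SP8 (63.5) and above SP4 (38.1). These highest peaks had summits at -671 bp from the 5′ end in DN, -674 in DP and SP8 and -685 in SP4. DN and SP4 each had a second, lower peak nearer the 5′ end. Its summit lay at 80 bp in DN (percentile 19.5) and at -404 bp in SP4 (26.1), on opposite sides of the 5′ end. Over the 200 bp before a start, the Myb peak stood at 66.7 in DN, 65.2 in DP, 26.1 in SP4 and 63.5 in SP8. The region over the 5′ end of Gfi1 (chr5:107725259-107726447, exon 1 of Gfi1 and an exon of the noncoding gene A430072P03Rik) stood at percentiles of 82.3, 76.8, 70.7 and 81.9 in the same order. SP4 was again the lowest. A second annotated start of Gfi1 lies in a region within intron 1 of transcript Gfi1-202 (chr5:107723993-107724466), and this region was called at all 4 stages at percentiles from 0.683 to 4.18. By q-value it stood at 37.8, 40.3, 10.9 and 40.1, higher at each stage than by fold enrichment. ATAC-seq does not tell strands apart, so that the openness at the 5′ end of Gfi1 cannot be assigned to Gfi1 or to the overlapping A430072P03Rik.

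The first intron of Myb, where its transcription is known to pause, was named after its values were seen. A region in it (chr10:21158248-21159415, 1.9 kb downstream of the 5′ end) stood at percentile 36.9 in DN, 26.0 in DP, 60.6 in SP4 and 53.3 in SP8. The neighbouring region 1.2 kb downstream stood at 29.7, 31.0, 41.4 and 41.1. In both regions SP4 and SP8 were above DN and DP, and in both this order was kept when percentiles were taken by q-value. In the region 1.2 kb downstream it was kept narrowly (63.6 in DP, 64.5 in SP8). The summits of the stages in the region 1.9 kb downstream lay up to 641 bp apart. A further region of this intron, 0.8 kb downstream, was called only in DP (1.83) and SP8 (4.69). The region over the 5′ end also reaches into this intron, and there DN and DP were above SP4 and SP8. The region 33.0 kb downstream, in intron 14 of the 15-exon transcript Myb-201, stood at 16.3, 30.6, 51.7 and 39.1, and the region 7.0 kb downstream, in intron 3, at 16.8, 6.41, 30.9 and 22.1. By q-value SP8 was no longer above both DN and DP in these last 2 regions. Of the other regions in the gene body, 5 were called in DN alone at percentiles from 6.43 to 13.9, and 3 in DN and DP, the highest of them over exon 9 (14.6 kb downstream) at 66.4 in DN and 54.9 in DP.

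A share of the regions was open throughout. At Myb 32 of 85 regions were called at all 4 stages (37.6%, interval 28.1 to 48.3) and at Gfi1 19 of 59 (32.2%, 21.7 to 44.9), beside 34.1% of all 185978 regions. Both intervals hold the share over all regions. At 2 or 3 stages 29 regions of Myb (34.1%) and 21 of Gfi1 (35.6%) were called, beside 27.4% of all regions.

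The highest of the regions called at all 4 stages lay in the flanks, save 1 of the 3 named at Gfi1, which lay over its last exon. At Myb, the region 25.9 kb upstream (chr10:21186755-21187277, over an exon of the noncoding Gm33619) stood at percentile 92.0 in DN, 95.4 in DP, 96.5 in SP4 and 95.7 in SP8, with fold enrichments of 17.6, 21.2, 24.4 and 23.8. Its summits lay within 9 bp of each other. The region 74.4 kb upstream, the first sequence printed for Myb, stood at 96.7, 96.0, 91.5 and 91.4. The region 68.3 kb downstream (chr10:21092356-21093556, between genes) stood at 95.9, 94.4, 92.8 and 90.7. All 3 were above percentile 90 at every stage by fold enrichment. The region 25.9 kb upstream was lowest in DN, and in the other 2 DN and DP stood above SP4 and SP8. By q-value and over equal lists DP was the highest stage of those 2, and by q-value the region 68.3 kb downstream stood at 89.9 in SP8. Over equal lists the region 25.9 kb upstream stood at 88.4 in DN.

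At Gfi1, the region 13.2 kb upstream (chr5:107739064-107739449) stood at percentile 98.6 in DN, 98.9 in DP, 97.7 in SP4 and 96.7 in SP8, with fold enrichments of 27.1, 28.4, 26.7 and 25.3. Its 4 summits lay within 2 bp of each other. Its mean percentile over the 4 lists, 98.0, was the highest in either window, and the highest mean at Myb was 94.9. The region 22.6 kb downstream (chr5:107703228-107704039, over an exon of 4930428O21Rik) stood at 87.6, 86.2, 95.3 and 92.9. The region 7.8 kb downstream (chr5:107717656-107718423) covers part of exon 7, the last exon of Gfi1-202, and stood at 90.9, 91.6, 69.8 and 93.0. It thus stood lower in SP4 than in the other stages, as the start region did. Over the regions called at all 4 stages, the summits of the 4 lists lay within 50 bp of each other in 17 of 32 regions at Myb (53.1%) and in 6 of 19 at Gfi1 (31.6%, 15.4 to 54.0). The share was 56.3% of the 63369 such regions in the genome, above the interval at Gfi1.

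**Figure D3:**
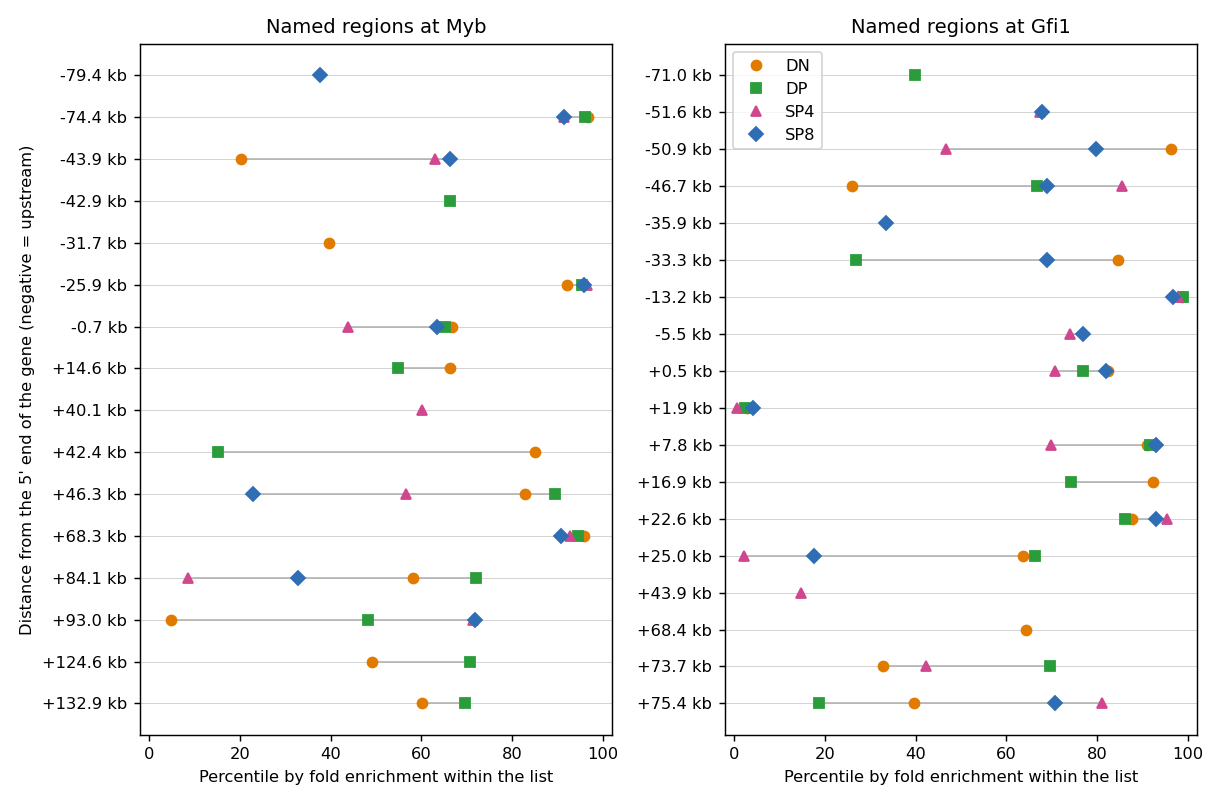
Percentile by fold enrichment of the named regions at Myb (left) and Gfi1 (right), 1 row per region, ordered by distance from the 5′ end of the gene in kb. Each symbol is the highest peak of a stage in the region, close symbols overlap, and a stage with no peak has no symbol. The symbols of the region 13.2 kb upstream of Gfi1 lie together near the right edge, while those of the region 93.0 kb downstream of Myb are spread from 4.98 to 71.7.

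Some regions that were open throughout stood at very different heights from stage to stage. At Myb, the region 93.0 kb downstream was lowest in DN and higher in DP and the mature stages, with percentiles of 4.98 in DN, 48.3 in DP, 71.3 in SP4 and 71.7 in SP8 and fold enrichments of 2.82, 5.33, 9.81 and 10.5. By q-value it stood at 24.2, 69.9, 75.2 and 69.6, with DN again lowest and DP level with SP8, and its DN peak was not among those kept when the lists were cut to equal length. The region 46.3 kb downstream (chr10:21114542-21114774) was lower in the mature stages, at 82.8, 89.5, 56.7 and 23.0. The region 84.1 kb downstream (chr10:21076775-21076988) stood at 58.2, 72.1, 8.55 and 32.8, while its neighbour less than 1 kb away, 83.8 kb downstream, stood at 79.6, 88.7, 98.1 and 97.7. These adjacent regions in an intron of Ahi1 thus had opposite orders of the immature and the mature stages.

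At Gfi1, the region 25.0 kb downstream, the last sequence printed above, stood at percentile 63.6 in DN and 66.4 in DP but 2.26 in SP4 and 17.6 in SP8. The region 75.4 kb downstream (chr5:107650436-107650925, in an intron of Rpap2) had the reverse order, at 39.7, 18.8, 81.1 and 70.7. Its neighbour 74.8 kb downstream stood at 52.8, 44.9, 1.93 and 21.6, a further pair of adjacent regions with opposite orders. In the Evi5 intron, the region 46.7 kb upstream (chr5:107772187-107772755) was lowest in DN at 26.0 and stood at 66.7, 85.5 and 68.9 in DP, SP4 and SP8.

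The order of the stages was counted over all regions called at all 4 stages, a count chosen after the values were seen. DN and DP were both above SP4 and SP8 in 11 of 32 regions at Myb and 5 of 19 at Gfi1, beside 25.2% of such regions in the genome. They were both below in 10 regions at Myb and 6 at Gfi1, beside 20.5%. The shares were 34.4% (20.4 to 51.7) and 26.3% (11.8 to 48.8) for the first order, and 31.2% (18.0 to 48.6) and 31.6% (15.4 to 54.0) for the second, and each interval holds the genome's share. When percentiles were taken by q-value the second count at Myb was 6.

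Regions called in DN and DP and in neither mature list were the largest group at Myb after those open throughout and those of DN alone. They numbered 11 of 85 (12.9%, 7.38 to 21.7), beside 5.59% of all regions, and lay 6 downstream of the gene, 3 in its body and 2 upstream. The DN list was the longest. With the lists cut to equal length, 6 of 75 regions at Myb were of this kind (8.0%, 3.72 to 16.4), beside 4.64% of all, and that interval holds the share over all regions. The highest of the group was the region 42.4 kb downstream (chr10:21118483-21118859), at percentile 85.0 in DN and 15.2 in DP. Its fold enrichment was 13.5 in DN and 3.41 in DP. The regions 124.6 and 132.9 kb downstream were higher in DP than in DN, at 70.8 against 49.1 and at 69.6 against 60.1. The members of this group ranged down to percentile 3.87 at their higher stage, with a median of 48.4. At Gfi1 this group held 5 of 59 regions (8.47%, 3.67 to 18.4), of which the region 16.9 kb downstream (chr5:107709027-107709276) stood far above the rest at 92.2 in DN and 74.2 in DP.

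The opposite group was called in SP4 and SP8 and in neither DN nor DP. In the full lists it was as large as the group of DN and DP only at Gfi1 and smaller at Myb. It held 5 of 59 regions at Gfi1 (8.47%, 3.67 to 18.4) and 2 of 85 at Myb (2.35%, 0.648 to 8.18), beside 3.82% of all regions, a share that both intervals hold. With the lists cut to equal length it held 4 of 52 regions at Gfi1 (7.69%) and 4 of 75 at Myb (5.33%), beside 5.67% of all. The group of DN and DP only then held 2 of 52 at Gfi1 (3.85%, 1.06 to 13.0) and 6 of 75 at Myb. In the full lists, all 5 regions of SP4 and SP8 only at Gfi1 lay upstream of the gene. The nearest, 5.5 kb upstream (chr5:107731389-107731876, between genes), stood at percentile 74.1 in SP4 and 76.9 in SP8. The region 51.6 kb upstream (chr5:107777540-107777745, in an intron of Evi5) stood at 67.3 and 67.8. In both, the heights in SP4 and SP8 were within 3 percentile points of each other.

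A region 50.9 kb upstream of Gfi1 (chr5:107776882-107777089) was missing from DP alone. It stood at percentile 96.3 in DN, 46.8 in SP4 and 79.7 in SP8, with fold enrichments of 22.2, 5.59 and 13.2. Less than 1 kb from the SP4 and SP8 region at 51.6 kb, it was 1 of the 4 peaks of the Gfi1 window at or above percentile 90 in DN. The region 33.3 kb upstream (chr5:107759099-107759509) was missing from SP4 alone and stood at 84.5 in DN, 27 in DP and 69.0 in SP8. The region 73.7 kb downstream (chr5:107652146-107652411, in an intron of Rpap2) was missing from SP8 alone and stood at 32.9, 69.5 and 42.2. At Myb, the region 43.9 kb upstream (chr10:21204655-21205009, in an intron of Gm33728) was missing from DP and stood at 20.2 in DN, 62.9 in SP4 and 66.4 in SP8. Close by, the region 42.9 kb upstream (chr10:21203830-21204101) was called in DP alone at 66.3.

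Regions called at a single stage were mostly low. At Myb they numbered 24 (28.2%, 19.8 to 38.6) and at Gfi1 19 (32.2%, 21.7 to 44.9), beside 38.5% of all regions. DN alone accounted for 12 regions at Myb (14.1%, 8.26 to 23.1) and 6 at Gfi1 (10.2%, 4.74 to 20.5), beside 21.7% of all, a share that the first interval holds and the second lies below. DP alone accounted for 5 and 6 regions, beside 5.17%. SP4 alone accounted for 5 and 3, beside 7.39%, and SP8 alone for 2 and 4, beside 4.21%. At each locus 2 single-stage regions reached percentile 50, and over the genome 11760 of 71585 such regions did, so that most were low there too.

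The highest region of SP4 alone at Myb lay 40.1 kb downstream (chr10:21120677-21120930) at percentile 60.2. That of DN alone lay 31.7 kb upstream at 39.7 and that of SP8 alone 79.4 kb upstream at 37.7. At Gfi1, the highest region of DN alone lay 68.4 kb downstream (chr5:107657540-107657742) at 64.3. That of DP alone lay 71.0 kb upstream at 39.8, that of SP4 alone 43.9 kb downstream at 14.8 and that of SP8 alone 35.9 kb upstream at 33.5. The 12 regions of DN alone at Myb had a median percentile of 11.9, beside 30.2 over all regions of that kind.

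**Figure D4:**
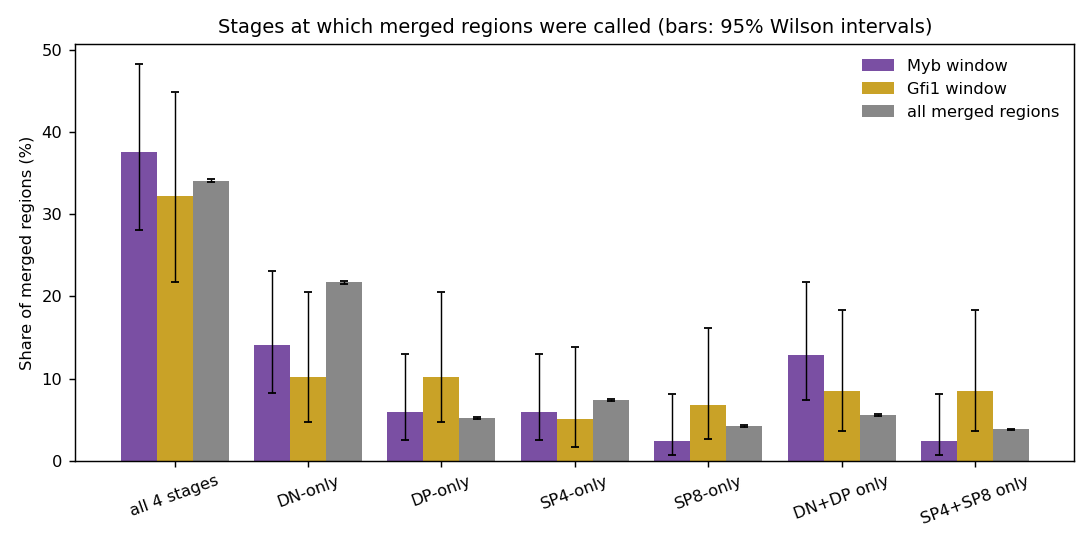
Share of merged regions found at given stages, for the Myb window (85 regions), the Gfi1 window (59 regions) and all 185978 regions, with the share in percent on the vertical axis from 0. Error bars are 95% Wilson intervals for counting error. Regions of DN and DP only make up 12.9% at Myb, 8.47% at Gfi1 and 5.59% of all regions.

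Each pair of lists shared most of its regions. At Myb, SP8 shared 41 of its 47 regions with SP4 (87.2% of SP8 and 80.4% of SP4), and DN and DP shared 46 (69.7% of DN and 82.1% of DP). DP and SP8 shared 37 at Myb (66.1% of DP and 78.7% of SP8). At Gfi1, SP4 and SP8 shared 27 (79.4% and 77.1%), DN and DP 27 (71.1% and 75.0%) and DP and SP8 21 (58.3% and 60.0%). Over all regions the shares were 75.0% and 82.5% for SP4 and SP8, 59.5% and 83.6% for DN and DP and 71.9% and 73.2% for DP and SP8. Of the stage pairs at each locus, SP4 and SP8 gave the highest share of the smaller list, while over all regions DN and DP did.

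The windows of 3 other T cell transcription factors gave similar mixtures. Gata3, needed for T lineage entry and CD4 cells, had 42 peaks in DN, 35 in DP, 42 in SP4 and 33 in SP8. Tcf7, which encodes TCF-1, had 69, 70, 62 and 64, and Bcl11b, a factor of T cell commitment, had 76, 70, 70 and 80. Dense windows were not particular to Myb. Per 100 kb, Tcf7 held 29.9, 30.3, 26.9 and 27.7 peaks and Bcl11b 25.9, 23.9, 23.9 and 27.3. Myb held 30.1, 27.1, 23.3 and 22.0. The share of regions called at all 4 stages was 31.7%, 41.9% and 30.9% at the 3 genes. The group of DN and DP only made up 6.67% at Gata3, 7.53% at Tcf7 and 8.18% at Bcl11b, less than the 12.9% at Myb, and each of their intervals overlaps that of Myb. In height the median peak of Myb and of Gfi1 exceeded that of Tcf7 and Bcl11b at each stage, while in DN that of Gata3 (39.7) stood above that of Myb (34.3) and below that of Gfi1 (44.1). In DP it stood at percentile 48.0 at Myb, 42.9 at Gfi1, 36.1 at Gata3, 24.8 at Tcf7 and 18.3 at Bcl11b.

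The genes whose windows divided their peaks among the 4 stages most as Myb did were Prcd, Cygb, Prkci, Ern1 and Hdac10, at Euclidean distances of the 4 shares from 0.0036 to 0.0052 among 6541 genes. For Gfi1 they were Pgap3, Ube2l3, Dyrk1a, Pnmt and Arf6, at 0.0015 to 0.0040 among 11369 genes. Windows of neighbouring genes share peaks, and the measure takes account of the shares alone.

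The sequences were searched for the motifs of 8 factors or families. In 200 bp around the highest summit, the MYB letters were found in 29 of 85 regions at Myb (34.1%, 24.9 to 44.7) and 26 of 59 at Gfi1 (44.1%, 32.2 to 56.7), beside 40.5% of all regions. The GFI1 letters were found in 4 regions at Myb (4.71%) and 6 at Gfi1 (10.2%, 4.74 to 20.5), beside 6.21%. The GATA letters were found in 7 at Myb (8.24%) and 11 at Gfi1 (18.6%, 10.7 to 30.4), beside 8.06% of all, and in the central 100 bp in 3 at Gfi1 (5.08%, 1.74 to 13.9) beside 3.36%. RUNX letters were found in 28.2% and 23.7% (25.2% of all), E-boxes in 52.9% and 52.5% (53.9%), TCF7/LEF1 letters in 22.4% and 18.6% (16.0%), ETS letters in 41.2% and 33.9% (40.2%) and the CTCF core in 2.35% and 5.08% (5.63%). Apart from GATA at Gfi1 over 200 bp, the intervals of the 2 loci hold the share over all regions for each motif at this width. In the central 100 bp the MYB letters were found in 10 regions at Myb (11.8%, 6.52 to 20.3) beside 23.1% of all regions, and the GFI1 letters in 5 at Gfi1 (8.47%, 3.67 to 18.4) beside 2.64%, and neither interval holds the share over all regions. No correction was made for reading 8 motifs at 2 loci and 2 widths side by side.

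The printed sequences held 34 matches in all. The region 74.4 kb upstream of Myb held 4 E-boxes, and CATCTG and CAGCTG among them lie side by side. The region 13.2 kb upstream of Gfi1 held CAGTTG, a match to both MYB and the E-box, from position -20 relative to the summit, CAACCG of MYB from position 4 and TGTGGT of RUNX from position -37. In the region 50.9 kb upstream of Gfi1 the only match was TGTGGT of RUNX, which begins at the summit. In the region 25.0 kb downstream of Gfi1, CAACAG of MYB overlaps CAGGTG of the E-box and TAACAG of MYB begins at position 14. In the region 93.0 kb downstream of Myb the GFI1 letters were found on the minus strand as GTGATT, from position 63. These matches describe the letters of the sequences and were not tested as binding sites.

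Regions open throughout were slightly richer in G and C than the rest at both loci and over the genome. The median GC content of the 200 bp was 50.2% in the regions of Myb called at all 4 stages and 48.5% in its other regions, and 48.5% against 44.5% at Gfi1, beside 52.5% against 50% over all regions. The CpG count per 200 bp reached 18 at Myb and 16 at Gfi1.

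The start sites of genes that work with MYB and GFI1 were mostly open at every stage. A start-site peak, over the 200 bp before an annotated start, was found for 65.7% of 20780 protein-coding genes in DN, 61.3% in DP, 59.6% in SP4 and 59.6% in SP8. In the MYB and GFI family 4 of 5 genes had a peak at all 4 stages. The exception was Gfi1b, the paralogue of Gfi1 that acts in red cells and platelets, with peaks in DN at percentile 24.6 and in DP at 5.05 and none in SP4 or SP8. Over 1000 bp Gfi1b had a peak at every stage. All 7 partners of GFI1 (Kdm1a, Rcor1, Hdac1, Hdac2, Hdac3, Ehmt2 and Zbtb17) had a peak at every stage, Hdac1 the highest at 97.6, 98.0, 96.8 and 96.4. Of the 5 partners of MYB (Crebbp, Ep300, Men1, Kmt2a and Psip1), Kmt2a, which encodes the histone methyltransferase MLL, had none in DN and percentiles of 6.49, 0.886 and 5.55 in DP, SP4 and SP8, and it too had a peak at every stage over 1000 bp.

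All 8 genes listed as bound or activated by MYB had a start-site peak at every stage. Among them Rag2, which encodes part of the recombinase that cuts antigen receptor genes, stood at 89.0 in DN, 91.2 in DP, 57.5 in SP4 and 67.2 in SP8, and Myc at 66.8, 60.1, 50.5 and 43.3. Of the 10 genes listed as bound or repressed by GFI1, 7 had a peak at every stage. The others were Gfi1b, Spi1, the gene of the myeloid and B cell factor PU.1, which had a peak in DN alone at percentile 12.6, and Hoxa9, a homeobox gene of progenitors, which had a peak in SP8 alone at 40.2. Il7r, the receptor of interleukin 7, stood at 91.9, 96.2, 84.1 and 74.3. Most protein-coding genes had an open start at each single stage (59.6% to 65.7%). The share of them with a peak at all 4 stages is not given, so the all-stage counts of the lists have no matching share. By single stage, the genes listed for MYB had a peak for 8 of 8 at each stage. Those listed for GFI1 had one for 9 of 10 in DN, 8 in DP, 7 in SP4 and 8 in SP8.

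Start-site peaks of marker genes were set beside the labels of the stages. Zbtb7b, the factor of CD4 fate, had a peak over the 200 bp before its start in SP4 alone, at percentile 56.4, and over 1000 bp it had a peak at every stage. Most of the other stage markers had a start-site peak at all 4 stages, and their heights did not always follow the labels. Ptcra, part of the pre-T cell receptor, stood at 94.5 in DN, 92.3 in DP, 28.2 in SP4 and 15.0 in SP8, whereas Notch1, also listed for DN, stood lowest in DN at 25.6 and highest in SP8 at 71.1. Il2ra, the CD25 gene of DN cells, stood at 84.8, 80.3, 92.2 and 93.4, and Cd4 was highest in DN at 37.2, with 16.1, 16.5 and 5.60 in the other lists. Runx3, the factor of CD8 fate, stood between 93.5 and 95.6 at all stages. Kit, listed for DN, was highest in SP8 at 93.6. Of the 5 markers listed for each of 4 other cell types, myeloid markers had a peak for 3 genes in DN, 1 in DP, 1 in SP4 and 2 in SP8, natural killer markers for 2 at each stage, dendritic markers for 2, 1, 1 and 1 and thymic epithelial markers for 1, 1, 0 and 1. Lyz2, a myeloid gene, had a peak in DN alone at 88.4, and Pax5, a B cell factor, had peaks in DN at 90.6 and in DP at 89.5 and none in SP4 or SP8. The defining genes Ms4a1, Cd79a, Csf1r, Elane, Hba-a1, Klf1, Ncr1, Siglech and Foxn1 had no start-site peak at any stage. The part of such cells in the regions of DN alone, or of DN and DP, at Myb and Gfi1 was not tested.

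At the edges of the windows, the peak just inside the downstream end at Myb belonged to SP4 (921 bp from the edge, percentile 65.8) and the next outside to DN (12707 bp away, percentile 55.2). At the upstream end the nearest inside peak belonged to SP4 (3345 bp, percentile 23.5) and the nearest outside to SP4 (7791 bp, percentile 56.2). At Gfi1 a DP peak at percentile 46.0 (chr5:107616601-107616762) lay across the downstream edge and was left out by the rule. The nearest whole peak inside that edge belonged to DN (1532 bp, percentile 21.6). Upstream, the nearest inside peak belonged to SP4 (1939 bp, percentile 10.5), and the nearest outside belonged to SP8 (14504 bp, percentile 98.5), so that a longer window would take in a high peak.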

How the data were processed

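ATAC-seq was done on 16 samples, 4 mice at each of 4 stages. Per the study's methods, the authors mapped reads with BWA (mm10), discarded duplicates (Picard) and poor alignments and thinned reads to the median library depth. On the reads of 4 mice together they ran MACS2 (5% FDR), leaving out blacklisted regions. The deposited lists, 1 per stage, give the fold enrichment over local background (a ratio, used for heights), a −log10 q-value (used in alternatives) and the summit position. Depth is not in the files, and the lists hold no peak on X or Y.

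From these lists, peaks were joined where they shared at least 1 bp, percentiles were computed within each list, and windows, exons and start sites were taken from GENCODE M21 and sequences from the mm10 reference. Python 3.11.15, pandas 2.3.3, numpy 2.4.6, scipy 1.17.1 and matplotlib 3.10.9 were used, and the merging, percentile and motif steps were tested on simulated data. Stages were compared by counts and percentiles without a test, since no list has replicates. Pooling hides the spread between mice, and a longer list holds more low peaks, which raises the percentile of a given peak.

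At each locus the named regions were those over a start site, the 3 highest called at all 4 stages, the 6 highest not called at all 4, the 3 called at all 4 with the largest range of percentiles, and the highest of each single stage. Regions outside this rule were named after their values were seen. Listed genes were named where they lacked a start-site peak at some stage, and a few others are given as examples. The loci, gene lists and motifs were chosen with earlier results of these data known. Of the marker genes, Cd40lg is X-linked, and some markers and the counts that need them are not reported here. Alternatives changed the window, the q-value, the list lengths, the overlap, the ranking and the promoter length.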

Additional observations from a re-analysis of the deposited data

How the results depend on the processing

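Of 143 recomputed values that answer a comparison, 122 stayed within 1.5 times the reported value. Some of the 122 were fixed in advance. Asking that a stage have its summit in the region repeats the main count, since each summit lies in its own region. RefSeq gene bounds lie so close to those of GENCODE that they could hardly move a count. With 50 kb flanks, which take in less sequence, Myb had 44, 36, 32 and 30 peaks in DN, DP, SP4 and SP8, with 17 regions called at all 4 stages, 13 at a single stage and 6 in DN and DP only. Gfi1 then had 25, 23, 22 and 23 peaks, with 11 regions at all 4 stages, 11 at a single stage and 2 in SP4 and SP8 only. With 200 kb flanks Gfi1 had 29 regions of a single stage. Lists of equal length left 46 DN peaks and 6 regions of DN and DP only at Myb. Joining peaks by summits within 100 bp gave 42 regions of a single stage at Myb and 29 at Gfi1, and by q-value DN and DP were below SP4 and SP8 in 6 regions of Myb, both chosen after seeing the data. Windows of 100 bp held 20 motif matches. Of 26 named regions called at more than 1 stage, 20 were highest at the same stage by q-value and 21 over equal lists. Stricter q-values, whole or partial overlap with the window, RefSeq gene bounds and longer promoters moved no such count by more than 1.5 times, though over 1000 bp promoters Gfi1b, Kmt2a and Zbtb7b had a peak at every stage. Single heights moved more. Of the 94 heights of named regions, 21 moved by over 1.5 times by q-value (median difference 7.80 points, at most 37.8), and of the 90 that remained over equal lists 8 did (0.890 points, at most 24.4). Over equal lists the DN heights 75.4 kb downstream of Gfi1 and 31.7 kb upstream of Myb were 15.4 and 15.3, against 39.7 for both. No paired analysis was possible because the mice were pooled before peaks were called, and for the same reason no mouse could be left out. Read depth, which limits the calling of low peaks, is not in the files, and the paper gives it only as a range over the pooled stages.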
